A study of Mus musculus with 8 samples.

Results

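The cyclin-dependent kinase (CDK) inhibitors of the CIP family (Cdkn1a, Cdkn1b and Cdkn1c) and of the INK4 family (Cdkn2a, Cdkn2b, Cdkn2c and Cdkn2d) were read out in murine pancreatic ductal adenocarcinoma (PDAC) cells with and without trametinib, an inhibitor of the kinase MEK. The 7 genes were chosen by symbol from the 34478 genes of the deposited table, and all 7 were among the 15888 genes that were tested. RNA was sequenced from 4 primary cell lines, numbered #1, #3, #5 and #10, each grown from a pancreatic cancer of mice whose alleles included Ptf1awt/Cre and Trp53loxP/loxP, so that DMSO and trametinib cells alike carried Cre at Ptf1a, a gene of pancreatic progenitors, and the floxed Trp53 alleles. Each line gave 1 DMSO library and 1 library after 48 h at its own IC50 of trametinib, 8 libraries in all. Lines are the replicates here, and no line was sequenced again under either treatment. The main p-values for trametinib rest on how much the change within a line varied over these lines. Nothing in the labels gives the age of the mice or the trametinib concentration of a line.

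CDKs bind cyclins and phosphorylate the retinoblastoma family of pocket proteins, which frees E2F factors and lets a cell enter S phase. INK4 proteins bind the monomeric kinases Cdk4 and Cdk6 and keep cyclin D from joining them, whereas CIP proteins bind cyclin-CDK complexes, above all those of Cdk2. In pancreatic cancer the locus of CDKN2A is often lost, and signaling through MEK and ERK raises cyclin D1. Most CIP proteins are also controlled by degradation, which a transcript measurement does not show.

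The values are normalized read counts. A change is the log2 ratio of trametinib over DMSO after 1 was added to each value, which understates the change of low genes, and limma tested it within cell lines (the line entered as a block), with adjustment over all genes tested. Output genes of ERK, the kinase below MEK, served to check the drug: of 10, 9 were lower at an adjusted p under 0.05, with log2 fold changes of -5.92 for Etv4 and -4.82 for Etv5, both ETS factors, of -3.61 for Spry4 and of -2.51 for Dusp6, both feedback inhibitors. Trp53, which encodes p53, was still counted, at 353, 275, 327 and 355 with DMSO and 196, 216, 218 and 278 with trametinib in lines #1, #3, #5 and #10. These counts cover the whole gene and do not check the deletion, since the labels do not name the exons between the loxP sites. Libraries summed to 33385299 to 36385719 normalized counts with DMSO and to 30680091 to 33063309 with trametinib. The keratins and Cdh1 of ductal epithelium were high in every library, Muc1 stood between 1327 and 14353, Sox9 between 65.5 and 1246, and Epcam between 0 and 10.4. The summed count of these 8 ductal markers was 231006 to 353416 with DMSO and 119359 to 231497 with trametinib. The summed count of 8 fibroblast markers was 84.4 to 354 with DMSO and 417 to 1245 with trametinib, with Col1a1 at 30.1 to 130 and 360 to 1110 and Lum at 0. The DMSO and trametinib ranges of the other fibroblast markers overlapped. Col3a1 stood at 3.19 to 97.2 and 5.86 to 55.3, Pdgfra at 9.96 to 105 and 19.6 to 71.2, and Dcn at 4.07 to 36.6 and 3.65 to 33.6. Pdgfrb stood at 0 to 9.93 and 0 to 19.2, Fap at 0.901 to 12.2 and 0 to 3.69, and Col1a2 at 0 to 4.29 and 0 to 2.89. In 6 leukocyte markers, 5 of which were in the table, the sum was 150 to 233 with DMSO and 235 to 515 with trametinib. It consisted mostly of Cd68 (135 to 188 and 130 to 228) and of Csf1r (1.05 to 46.9 and 14.2 to 340), while Ptprc, which defines leukocytes, stood at 4.05 to 17.2 in all libraries and Cd3e at 0 to 0.488. The fibroblast and leukocyte sums were thus higher and the ductal sum mostly lower with trametinib, though not every marker followed its sum. Most of the fibroblast sum with trametinib was Col1a1. The ductal marker Cdh1 stood at 19630 to 28487 with DMSO and at 21158 to 27194 with trametinib. The part of all these markers in the changes of the inhibitor genes was not tested.

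With trametinib, 3 of the 7 inhibitor genes rose (Cdkn1a, Cdkn1c and Cdkn2b), 2 fell (Cdkn2c and Cdkn2d) and 2 did not pass (Cdkn1b and Cdkn2a). Of all genes tested, 27.3% were called higher and 25.6% lower, so a gene that passed the filter was more often called than not. The 7 genes had a median log2 fold change of 0.25 and all genes tested one of 0.07. In the CIP family 2 of 3 genes rose and none fell, with a median of 0.54, and in the INK4 family 1 of 4 rose and 2 fell, with a median of -0.18. Without the cell line as a block, limma called no inhibitor gene higher and none lower at an adjusted p under 0.05, and 1 higher and 1 lower at an unadjusted p under 0.05. These are bulk cultures, in which more cells with a transcript and more transcript per cell cannot be told apart.

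**Figure D1:**
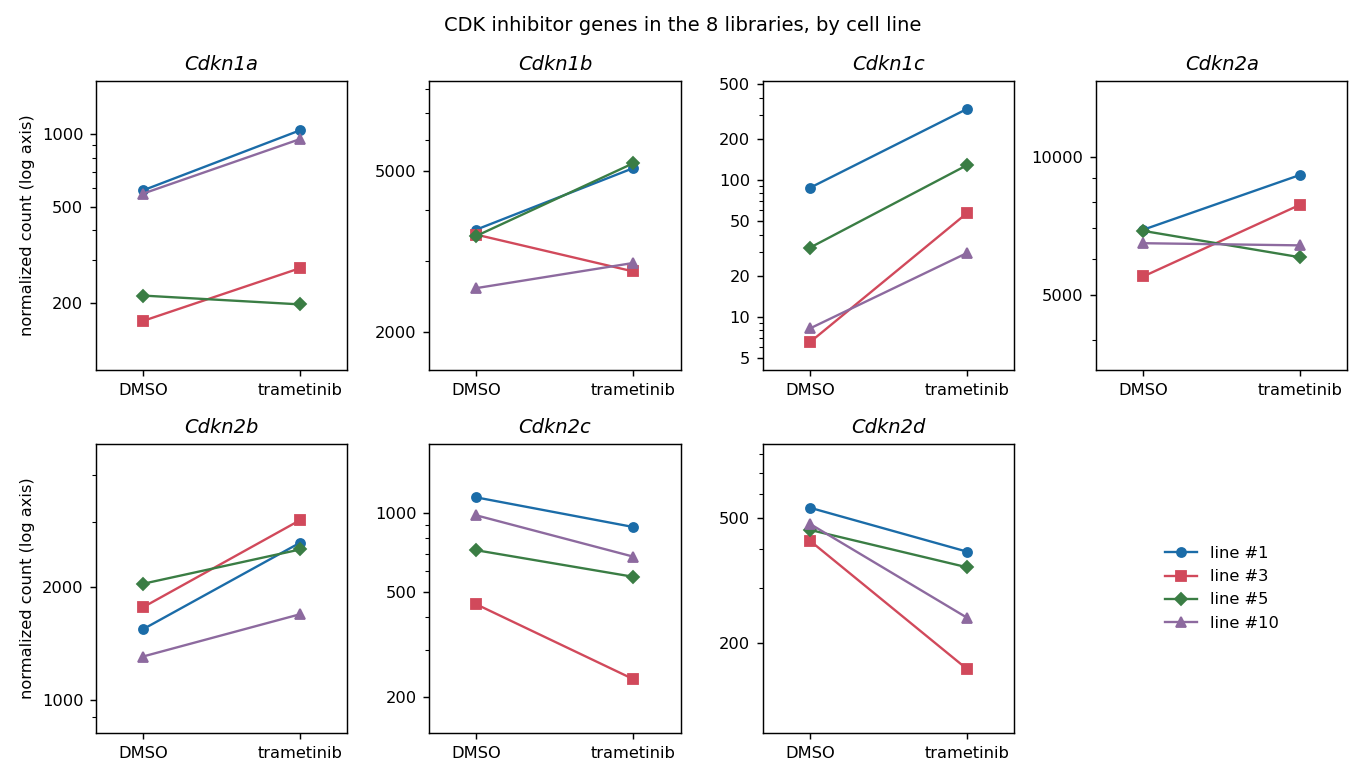
Normalized counts on a log axis of the 7 CDK inhibitor genes, 1 panel per gene, with DMSO at the left and trametinib at the right and a line joining the 2 libraries of each cell line. Cdkn1c rises from 6.54 to 57.3 in line #3, and Cdkn2d is the gene in which no trametinib library (165 to 392) reaches a DMSO library (424 to 541).

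Promoters of 4 of the 5 genes that changed are shown first, since genes with opposite changes can be compared by sequence. RefSeq start sites were matched for 6 of the 7 genes, all but Cdkn1c, in 9 windows that run from 250 bases before the start to 50 after it, on GRCm38.p6. Given below, 5′ to 3′ on the strand of the gene, are the 150 bases before a start of each gene, with the Sp and Klf factor motif GGGCGG (or CCGCCC where it lies on the other strand) in capitals. Where RefSeq has 2 starts of a gene (Cdkn1a and Cdkn2c), the one with the motif is shown.
Cdkn2c, which fell, chr4:109666757-109666906, minus strand: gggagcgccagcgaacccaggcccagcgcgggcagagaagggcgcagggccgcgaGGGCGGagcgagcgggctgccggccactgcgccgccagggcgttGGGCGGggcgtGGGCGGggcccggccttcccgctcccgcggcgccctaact
Cdkn2d, which fell, chr9:21291210-21291359, minus strand: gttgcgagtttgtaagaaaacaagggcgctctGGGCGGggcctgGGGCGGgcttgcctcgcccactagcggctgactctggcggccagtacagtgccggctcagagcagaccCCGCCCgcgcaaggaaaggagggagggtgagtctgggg
Cdkn2b, which rose, chr4:89311033-89311182, minus strand: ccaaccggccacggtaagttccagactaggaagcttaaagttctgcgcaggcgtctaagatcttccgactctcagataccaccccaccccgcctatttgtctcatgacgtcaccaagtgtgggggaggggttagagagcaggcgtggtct
Cdkn1a, which rose, chr17:29093619-29093768, plus strand: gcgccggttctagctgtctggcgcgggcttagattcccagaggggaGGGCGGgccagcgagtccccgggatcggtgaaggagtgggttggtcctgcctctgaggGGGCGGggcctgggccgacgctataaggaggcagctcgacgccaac

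GGGCGG was found on either strand in 7 of the 9 windows and in 35.7% of the 32851 promoters of the same length. The motif holds only G and C, and the promoters were not matched for GC content. That content was 57.7% to 77% in the windows with a match, and 44% and 54.7% in those without. The window of Cdkn2d held 5 matches, the one of Cdkn2c shown above 4, that of Cdkn1a 2 and that of Cdkn2b 1, which lies after the start and so outside the bases shown. Windows of the genes that fell and of those that rose both held the motif. Of the other motifs searched on both strands, TTTNGCGC, the E2F motif, stood once, in a window of Cdkn2a, with 1.38% of all promoters holding it. The E-box CACGTG stood once, in the other window of Cdkn2c, against 7.15% of all promoters. The forkhead motif TGTTTAC (3.65% of all promoters), the AP-1 motif TGANTCA (7.81%), the ETS motif CCGGAAG (8.86%) and the TATA box TATAAA (13.6%) were in none of the 9 windows, which says only that these letters are not there.

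Cdkn1c encodes p57, a CIP inhibitor that is expressed from the maternal allele and holds many differentiated cells out of the cycle. It is a gene of the minus strand on chromosome 7 (chr7:143458339-143461050 of GRCm38). With DMSO its normalized count was 87.7 in line #1, 6.54 in line #3, 32.1 in line #5 and 8.24 in line #10. With trametinib it was 330 in line #1, 57.3 in line #3, 128 in line #5 and 29.3 in line #10. Each line rose, by 3.73-fold, 7.73-fold, 3.91-fold and 3.28-fold in that order with 1 added to both counts, though the levels of the groups overlapped because the lines started so far apart. In limma the log2 fold change was 2.13 (standard error 0.29, 95% interval 1.44 to 2.82, adjusted p = 0.00138), and it lay between 1.86 and 2.27 when a line was left out. Without the block, which leaves the spread between lines in the error, the adjusted p was 0.122. The DMSO values of lines #3 and #10 correspond to about 6.29 and 8.60 reads, so the folds of those lines rest on few reads. The exons of Cdkn1c overlap those of Gm44732 on the opposite strand, and the sources used here do not say whether reads were assigned by strand.

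Cdkn1a encodes p21, the classical target of p53 and an inhibitor of cyclin-Cdk2 complexes (chr17:29090976-29100727, plus strand). Its DMSO counts were 585 in line #1, 168 in line #3, 214 in line #5 and 567 in line #10. The trametinib counts of the same lines were 1037, 278, 197 and 954. Lines #1, #3 and #10 were higher with the drug, by 0.83, 0.72 and 0.75 on the log2 scale, and line #5 was at -0.12, with overlapping groups. The gene passed in limma, where its log2 fold change was 0.54 (standard error 0.19, 95% interval 0.10 to 0.99, adjusted p = 0.0446). This call was lost in 9 of 15 alternatives, among them the removal of line #1 (adjusted p = 0.167 in limma), line #3 (0.0895) or line #10 (0.155), quantile normalization (0.197) and no block (0.560). Without line #5 the log2 fold change was 0.77 (adjusted p = 0.00925 in limma). An exon of AC167363.2 lies on the strand opposite to Cdkn1a, and its reads could not be told apart if strand was not used.

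Cdkn1b encodes p27, which binds cyclin E and Cdk2 and is usually removed by the ligase subunit Skp2 (chr6:134920401-134925513, plus strand). With DMSO it stood at 3585, 3482, 3458 and 2564 in lines #1, #3, #5 and #10. With trametinib it stood at 5098, 2820, 5243 and 2962. Lines #1, #5 and #10 were above their DMSO library and line #3 below it, and the groups overlapped. The log2 fold change of 0.25 did not pass in limma (95% interval -0.12 to 0.62, adjusted p = 0.210). Without line #3, where the log2 change was -0.30, it was 0.44 and passed (adjusted p = 0.00925 in limma), and it was 0.17 without line #1, 0.14 without line #5 and 0.38 with equal library totals.

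Cdkn2b encodes p15, an INK4 inhibitor of Cdk4 and Cdk6 that TGF-β is known to induce (chr4:89306299-89311039, minus strand). Its counts with DMSO were 1547, 1771, 2046 and 1308 in lines #1, #3, #5 and #10. With trametinib they were 2634, 3027, 2527 and 1697. All 4 lines rose in value, with log2 changes of 0.77, 0.77, 0.30 and 0.37, and the groups overlapped only through the low trametinib library of line #10. In limma the log2 fold change was 0.55 (standard error 0.11, 95% interval 0.28 to 0.83, adjusted p = 0.00664), it passed without any 1 of the lines, and without the block the adjusted p was 0.0784.

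Cdkn2a, next to Cdkn2b (chr4:89274471-89294653, minus strand), encodes 2 proteins from separate start sites: the INK4 inhibitor p16 and, in another reading frame, p19Arf, which holds back Mdm2 and so protects p53. The deposited value sums the transcripts of both and cannot separate them. With DMSO it was 6950, 5499, 6908 and 6495 in lines #1, #3, #5 and #10. With trametinib it was 9149, 7881, 6052 and 6425. Lines #1 and #3 were higher by 0.40 and 0.52 on the log2 scale, and lines #5 and #10 stood at -0.19 and -0.02. The log2 fold change of 0.18 did not pass in limma (95% interval -0.14 to 0.50, adjusted p = 0.301), nor in any of the 15 alternatives. It was 0.06 without line #3, 0.10 without line #1 and 0.30 without line #5, and 0.30 with equal library totals and 0.32 with quantile normalization. Cdkn2a and Cdkn2b were both counted in all 8 libraries.

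Cdkn2c encodes p18, the INK4 protein that E2F factors are known to induce in cycling cells (chr4:109660876-109667189, minus strand). It stood at 1144, 449, 720 and 978 with DMSO in lines #1, #3, #5 and #10. Its trametinib counts were 883, 233, 571 and 681. Each line was lower, most in line #3 (log2 change -0.94, against -0.37, -0.34 and -0.52 in lines #1, #5 and #10), and the groups overlapped. The log2 fold change was -0.54 in limma (standard error 0.13, 95% interval -0.86 to -0.22, adjusted p = 0.0139). The adjusted p in limma was 0.0513 without line #10 and 0.384 without the block.

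Cdkn2d encodes p19, the INK4 protein whose transcript is highest in S phase (chr9:21288410-21291407, minus strand). With DMSO it was counted at 541, 424, 459 and 480 in lines #1, #3, #5 and #10. With trametinib it was counted at 392, 165, 349 and 241. It was the single inhibitor gene whose groups did not overlap, a separation in which DMSO lay above trametinib for 16.2% of all genes tested and below it for 15.1%. The log2 changes were -0.46, -1.35, -0.40 and -0.99, and the limma estimate was -0.80 (standard error 0.19, 95% interval -1.26 to -0.35, adjusted p = 0.0118). The adjusted p in limma was 0.0503 without line #10 and 0.0585 without the block.

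**Figure D2:**
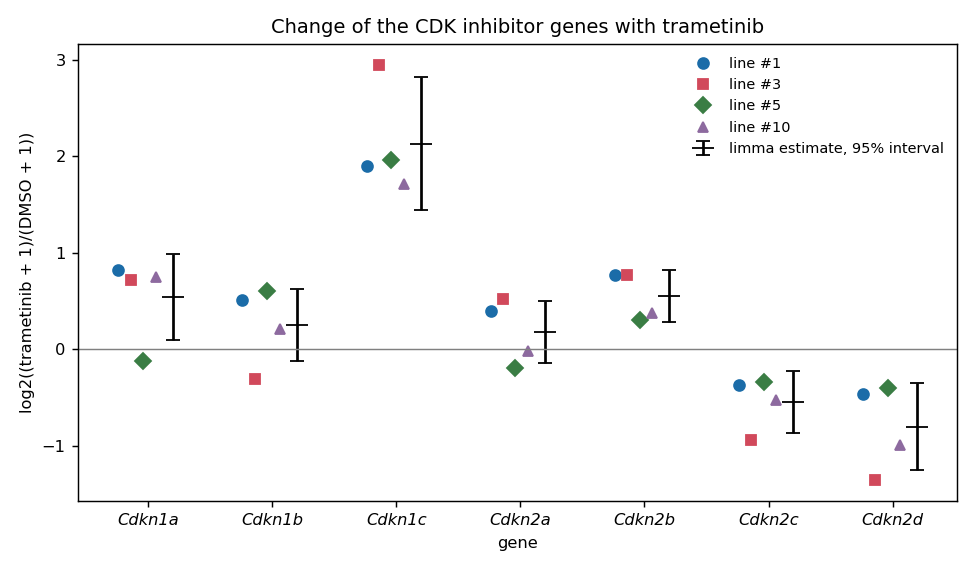
Log2 change of each CDK inhibitor gene with trametinib, after 1 was added to each normalized count: coloured symbols are the 4 cell lines, and the black bar is the limma estimate with its 95% interval. Cdkn1c (2.13) stands far above the others, Cdkn2c and Cdkn2d lie below 0 in every line, and line #5 of Cdkn1a (-0.12) and line #3 of Cdkn1b (-0.30) lie apart from the other lines of the gene.

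In direction, 2 inhibitor genes (Cdkn1c and Cdkn2b) were higher in 4 of 4 lines and 2 (Cdkn2c and Cdkn2d) were lower in 4 of 4, where 65.6% of all genes tested had 1 direction throughout. Cdkn1c had the largest log2 change of the 7 genes in each line. In size, line #3 had the largest log2 change of the 4 lines in Cdkn1c, Cdkn2a, Cdkn2c and Cdkn2d. In Cdkn2b it was largest by little, with 0.773 against 0.767 in line #1. Line #5 had the smallest in Cdkn1a, Cdkn2b, Cdkn2c and Cdkn2d. With 1 library per line and treatment, a difference of the drug effect between lines could not be tested.

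Changes of the inhibitor genes were compared with each other within lines in 21 pairs. In 17 pairs the difference had the same sign in 4 of 4 lines, and in 4 pairs it did not. Cdkn1c changed by 1.58 ± 0.46 (SD, n = 4 lines) more on the log2 scale than Cdkn2b, by the exact sign-flip permutation test, two-sided, with p = 0.125, the smallest that 4 lines allow, and an adjusted p of 0.154 over the 21 pairs. Against Cdkn2d, Cdkn1c differed by 2.93 ± 0.93 (SD, n = 4 lines). Between the neighbours Cdkn2a and Cdkn2b the difference was -0.38 ± 0.10 (SD, n = 4 lines) and lay below 0 in each line (range -0.50 to -0.25). Cdkn2c fell less than Cdkn2d in each line, by 0.26 ± 0.21 (SD, n = 4 lines). Cdkn1a and Cdkn2b differed by -0.01 ± 0.33 (SD, n = 4 lines), positive in lines #1 and #10 and negative in #3 and #5.

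Levels can be compared between genes only per length, here as normalized counts per kb of annotated exon. On that scale Cdkn2a made up the bulk of the INK4 family, with a median of 5718 per kb with DMSO and 6103 with trametinib. Its value includes the transcripts of p19Arf, which is not an INK4 protein. The share of p16 alone is therefore not known, and the shares of the other genes depend on this sum. It held 75.1% of the family sum in the median DMSO library and 74.9% in the median trametinib library. Cdkn2b followed, and its share was larger with trametinib in each line: 14.2% and 18.4% in line #1, 19.9% and 23.9% in line #3, 18.6% and 24.5% in line #5, and 13.2% and 17.2% in line #10. Cdkn2c and Cdkn2d held smaller parts, and both were smaller with trametinib in each line, with medians of 4.24% and 3.03% for Cdkn2c and of 4.24% and 2.29% for Cdkn2d. No test was run on these shares, which follow from the counts above.

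In the CIP family Cdkn1b led with a median of 762 per kb with DMSO and 885 with trametinib, which was 85.0% and 78.2% of the family. Cdkn1a stood at a median of 110 and 173 per kb, and its share with DMSO ran from 5.81% in line #3 to 22.0% in line #10. Cdkn1c was the lowest of the 3, at a median of 9.88 per kb with DMSO and 45.5 with trametinib. Its share was 4.32% with DMSO and 10.3% with trametinib in line #1, 0.393% and 3.87% in line #3, 1.88% and 4.95% in line #5, and 0.556% and 1.54% in line #10. Thus the gene with the largest log2 change remained the smallest part of its family in 7 of 8 libraries, and in line #5 with trametinib it exceeded Cdkn1a (4.37%).

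**Figure D3:**
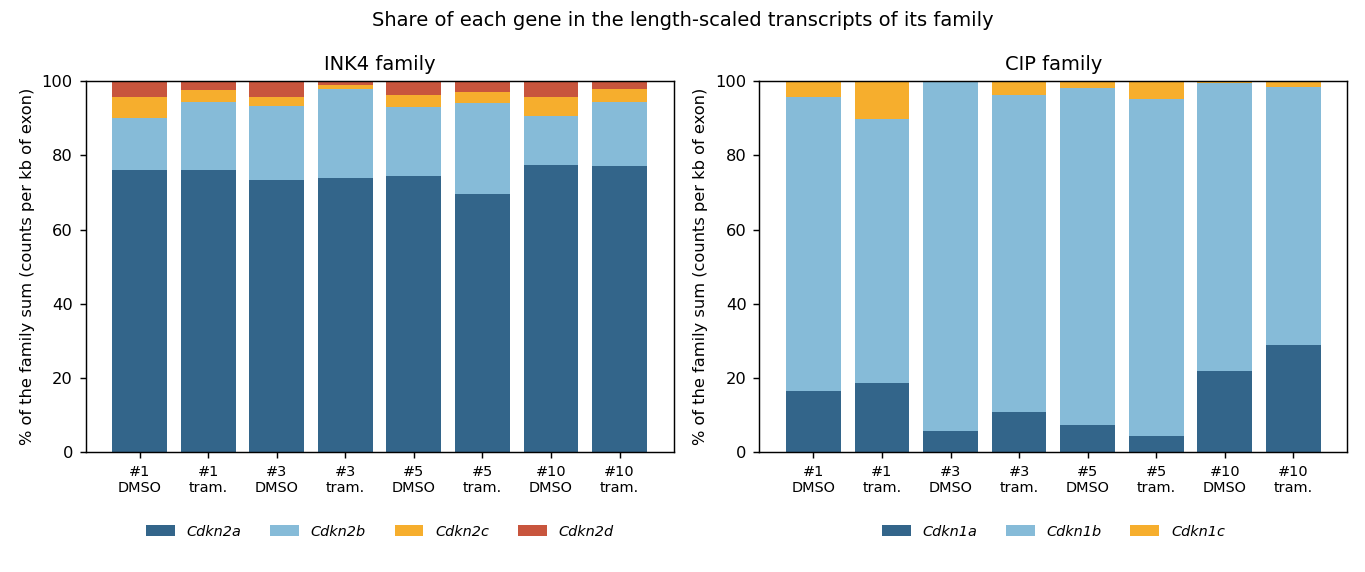
Share of each gene in the summed normalized counts per kb of exon of its family, for the 8 libraries ordered by cell line, with INK4 genes at the left and CIP genes at the right, each bar adding up to the whole family. Cdkn2a, counted with its p19Arf transcripts, holds 69.6% to 77.5% of the INK4 sum in every library, and Cdkn1b holds 69.7% to 93.8% of the CIP sum.

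The lines themselves differed in 3 of the 7 genes (Cdkn1a, Cdkn1c and Cdkn2c) in limma's F-test over lines with treatment as a covariate, against 27.6% of all genes tested. Each line entered this test with its DMSO and its trametinib library as replicates, and no line was repeated under the same treatment. For Cdkn1a, lines #1 and #10 were high, with geometric means over both treatments of 779 and 735, and lines #3 and #5 were low, with 217 and 206 (adjusted p = 0.0058 in limma). Neither line #10 and line #1 (adjusted p = 0.870) nor lines #5 and #3 (adjusted p = 0.862) differed beyond their spread in limma. In the contrasts across those pairs, the adjusted p was 0.00655 for #3 against #1, 0.0185 for #5 against #1, 0.00907 for #10 against #3 and 0.0131 for #10 against #5 in limma. The share of all genes called in these contrasts was 23.3% for #3 against #1, 2.41% for #5 against #1, 14.7% for #10 against #3 and 8.3% for #10 against #5. Lines #5 and #1 were the pair with the fewest calls over all genes, and Cdkn1a was lower in line #5 than in line #1 by a log2 difference of -1.92.

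Cdkn1c had the widest range between lines, with geometric means of 170 in line #1, 64.4 in line #5, 20.0 in line #3 and 15.7 in line #10, a span of 10.2-fold (adjusted p = 0.00721 in limma, and 0.0740 without line #1). Its neighbours in this order were not told apart for #1 and #5 (adjusted p = 0.157) or for #3 and #10 (0.610) in limma, while line #5 was above line #3 (0.0351), for which 20.7% of all genes were called. For Cdkn2c the order was line #1 (1005), #10 (816), #5 (641) and #3 (323), with an adjusted p of 0.00752 in limma. Line #3 was below each other line (adjusted p of 0.0036 against #1, 0.0179 against #5 and 0.00774 against #10 in limma), and the other lines were not told apart. Between lines #10 and #1 the gene that passed was Cdkn1c (adjusted p = 0.0076 in limma), a contrast in which 8.76% of all genes were called.

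Cdkn1b, Cdkn2a, Cdkn2b and Cdkn2d did not pass the test between lines, with adjusted p of 0.115, 0.454, 0.0620 and 0.167 in limma. Cdkn2a was the most even, with geometric means of 7974 in line #1 and 6460 to 6583 in the other lines. For Cdkn2b line #10 was lowest (1490), and it differed from line #3 (2315) at an adjusted p of 0.0449 in limma. Without line #3, Cdkn1b (0.0178) and Cdkn2b (0.0386) passed the test between lines in limma.

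The kinases, cyclins and pocket proteins on which the inhibitors act mostly fell. Of 13 such genes 8 fell, 2 rose and 3 did not pass, with a median log2 fold change of -0.72. Those that did not pass were Cdk6 (-0.15) and the D cyclins Ccnd2 (-0.15) and Ccnd3 (-0.07), named here after their values were seen. For this list and those below, the shares over all genes tested were 27.3% higher and 25.6% lower. Ccnd1, the cyclin D1 that INK4 proteins compete with, fell by 2.03 on the log2 scale (adjusted p = 0.000335 in limma), and its counts of 19569 to 47533 with DMSO did not overlap those of 4099 to 14280 with trametinib. The S-phase cyclins changed by -1.91 (Ccne1), -1.94 (Ccne2) and -1.59 (Ccna2). The kinase Cdk4 fell less, by 0.41 on the log2 scale (adjusted p = 0.00569 in limma, 0.0703 and a log2 fold change of -0.21 with quantile normalization, and 0.248 without the block). The pocket protein genes went both ways. Rbl1, added here after its values were seen, fell by 0.95 and was lower in 4 of 4 lines (adjusted p = 0.00481 in limma). Rbl2 rose by 0.66 (adjusted p = 0.00161 in limma). Rb1 rose by 0.34 (adjusted p = 0.0373 in limma), a call lost without line #1 (0.102), #3 (0.0509), #5 (0.149) or #10 (0.0578).

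Of 7 other genes of proteins that act on CDKs or are named for the inhibitors, 1 rose and 5 fell, with a median of -0.72. Cables1, which links CDKs to tyrosine kinases, rose by 2.21. The phosphatase gene Cdkn3 was at -1.33, Cdkn2aipnl, a relative of the Arf-binding protein gene Cdkn2aip and not known to bind CDKs, at -0.80, and the inhibitory kinases Wee1 and Pkmyt1, which phosphorylate CDKs, at -0.72 each. Wee1 missed the threshold without line #10 (adjusted p = 0.0619 in limma) and with eBayes without trend (0.0515), and was at -0.47 without line #3. The median of these genes and that of the INK4 family were both below 0, and the one of the CIP family was above it.

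Among 13 parts of the ubiquitin ligases that degrade p21, p27 and p57, 7 fell, 1 rose and 5 did not pass, with a median of -0.26. Skp2, the substrate receptor for p27, had DMSO counts of 2154, 2211, 2901 and 2222 and trametinib counts of 1022, 540, 1373 and 1137 in lines #1, #3, #5 and #10. It was lower in each line without overlap of the groups, and its log2 fold change was -1.29 (adjusted p = 0.00169 in limma). Its partner Cks1b was at -1.27, Dtl, which targets p21 in S phase, at -1.55, and Cdc20, an activator of the anaphase-promoting complex, at -1.42. Fbxl12, which can target p57, rose by 0.47 (adjusted p = 0.0122 in limma, 0.0575 without line #5 and 0.0536 without the block). Protein levels of the inhibitors were not analysed here.

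**Figure D4:**
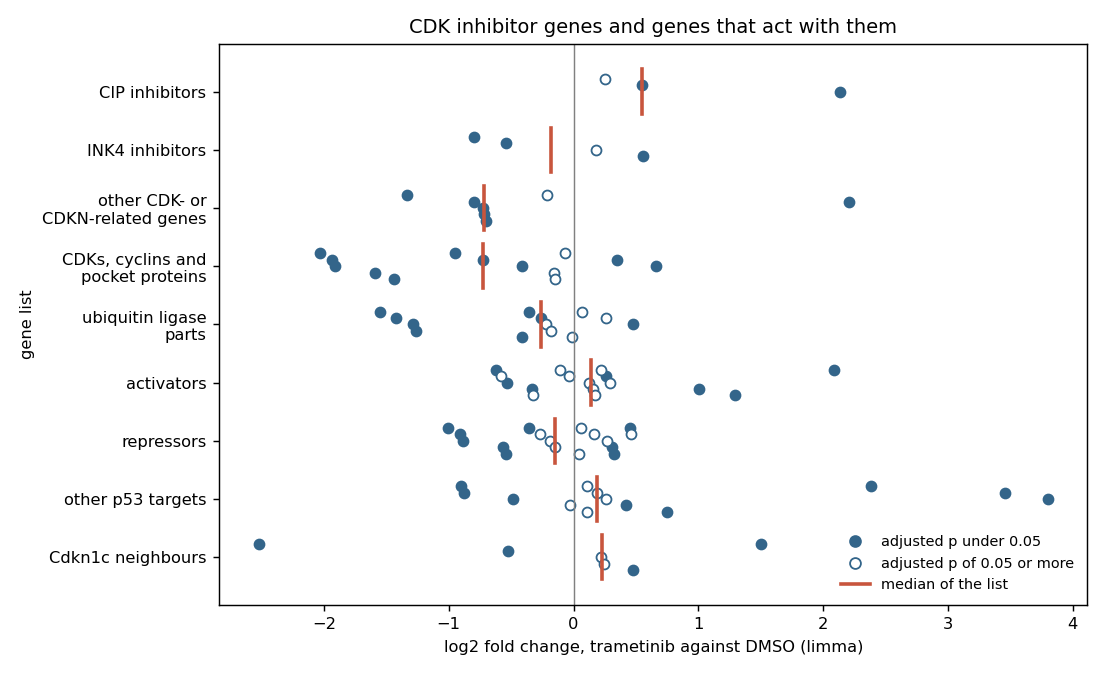
Limma log2 fold change (horizontal axis) of the genes tested in 9 lists (rows): filled circles passed at an adjusted p under 0.05, open circles did not, and the red bar is the median of the list. The median is 0.54 for CIP inhibitors, -0.18 for INK4 inhibitors and -0.72 for the kinases, cyclins and pocket proteins.

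Of 16 tested transcription factors known to activate inhibitor genes, 4 rose, 3 fell and 9 did not pass, with a median of 0.14. Over all genes tested, 27.3% were called higher and 25.6% lower. Foxo3, a forkhead factor that can drive Cdkn1b, rose from 1127, 597, 719 and 603 to 2509, 1450, 1686 and 1726 in lines #1, #3, #5 and #10, which limma put at 1.29 on the log2 scale (adjusted p = 0.000309). Its groups did not overlap. Foxo6 rose by 2.08 and the factor Ets1, which can activate p16, by 1.00 (adjusted p = 0.00262 in limma, 0.0910 without the block), while Foxo1 did not pass (0.16, adjusted p = 0.245 in limma, with values of 0.09 to 0.28 over the alternatives). Ets2 rose by 0.26 (adjusted p = 0.0486 in limma), a call lost without line #1 (0.124), without #10 (0.218) and without #5 as well. With quantile normalization the log2 fold change of Ets2 was 0.40 (adjusted p = 0.0105 in limma). Sp1, which binds the GGGCGG motif shown above, fell by 0.62 (adjusted p = 0.00122 in limma). Smad2, a mediator of TGF-β signals, fell by 0.33 (adjusted p = 0.0179 in limma, 0.0579 without line #1 and 0.0640 without line #10), and with equal library totals it was at -0.20 (adjusted p = 0.0933) and with quantile normalization at an adjusted p of 0.0541. Trp53 fell by 0.53 (adjusted p = 0.0219 in limma), a call lost without line #1 (0.0919), #5 (0.0761) or #10 (0.0515) and with libraries rescaled to equal totals (0.0566).

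Of 17 tested repressors of inhibitor genes, 3 rose, 6 fell and 8 did not pass, with a median of -0.15 (all genes tested: 27.3% higher and 25.6% lower). Myc, which represses Cdkn1a and Cdkn2b, stood at 9547, 6413, 11238 and 8084 with DMSO and at 5085, 3036, 5652 and 3917 with trametinib in lines #1, #3, #5 and #10. It was lower in each line without overlap, at -1.01 on the log2 scale in limma (adjusted p = 0.000313). Core parts of the Polycomb repressive complex that silences Cdkn2a, Suz12 (-0.91) and Eed (-0.89), fell as well, and so did Id1 (-0.57), which can repress p16. The Polycomb genes Cbx6 (0.32) and Ezh1 (0.31) rose with adjusted p of 0.0178 and 0.0454 in limma. Both calls were lost without line #1, #5 or #10, with adjusted p of 0.0775 to 0.0838 for Cbx6 and 0.138 to 0.162 for Ezh1 in limma.

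The other target genes of p53 showed no single direction beside the rise of Cdkn1a. Of 13 tested, 5 rose, 3 fell and 5 did not pass, with a median of 0.18 (all genes tested: 27.3% higher and 25.6% lower). Trp53inp1, a stress-induced nuclear protein gene, rose by 3.80, Pmaip1, which encodes the BH3-only protein NOXA, by 2.38 and the stress sensor gene Sesn2 by 0.75. The death receptor gene Fas, also counted among the 5, stood at 3.41 to 7.10 with DMSO and 15.5 to 146 with trametinib, and it passed the filter on the mean only through the trametinib libraries (log2 fold change 3.46). Perp (-0.90), a cell junction gene, Aen (-0.88), a nuclease gene, and the pore-forming protein gene Bax (-0.49) fell. The lines carried Cre and floxed Trp53 alleles, and whether p53 acted on any of these genes or on Cdkn1a was not tested.

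Neighbours on the chromosome did not all follow the inhibitor genes. Mtap, the methionine salvage gene beside Cdkn2a, was at 8033, 5707, 8636 and 5729 with DMSO and 5533, 2738, 4766 and 3436 with trametinib in lines #1, #3, #5 and #10. It fell by 0.80 on the log2 scale (adjusted p = 0.00123 in limma) where Cdkn2b rose and Cdkn2a did not pass. Of the 6 tested genes of the imprinted region around Cdkn1c, 2 rose, 2 fell and 2 did not pass. Cd81 rose by 1.50, and the imprinted Phlda2 fell by 2.52 (adjusted p = 0.000173 in limma), opposite to Cdkn1c. Nap1l4 fell by 0.52. The long noncoding RNA Kcnq1ot1, which silences the paternal allele of the region, rose by 0.47 (adjusted p = 0.0454 in limma), a call lost without line #3 (0.101), #5 (0.115) or #10 (0.138).

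For each inhibitor gene the 3 tested genes with the most similar pattern over the 8 libraries were listed by Pearson's r of log2 values, as a description, since the libraries share cell lines and treatments. For Cdkn1a these were Gm29562 (0.988), Taf9b (0.984) and Gm13710 (0.979). For Cdkn1b they were Slc25a51 (0.964), Zfp719 (0.947) and Prune2 (0.941), and for Cdkn1c Napa (0.985), Faxc (0.984) and Gm12185 (0.982). Among INK4 genes, Cdkn2a was most like Tprn (0.967), Ifi205 (0.935) and AC122840.3 (0.930), and Cdkn2b most like AC154552.7 (0.983), Tmie (0.966) and Ephb3 (0.964). Cdkn2c was most like Zc3h14 (0.994), Fcf1 (0.985) and Cfl1 (0.983). Cdkn2d was most like Phlda1 (0.985), Wee1 (0.984) and Taf12 (0.984), and Wee1 is also on the list of CDK-restraining kinases above. No inhibitor gene was among the 3 genes most like another.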

How the data were processed

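Stranded poly(A) mRNA libraries (TruSeq) were sequenced from 4 cell lines with DMSO or trametinib. The authors deposited normalized read counts per gene, a signal scaled between libraries and not whole counts. Per the labels, the submitters' processing notes name CASAVA 2.17, Salmon 0.12, DESeq2 1.18 and mm10, with no role or order. Count tests were therefore not used, all 8 columns were, and depth was estimated from the most frequent low value, taken as 1 read, at 29312600 to 45911200 reads.

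Values were transformed as log2(value + 1), and genes with a mean of at least 10 were tested with limma 3.58.1 (R 4.3.3), using lmFit and eBayes with trend, the cell line as a block, Benjamini-Hochberg adjustment over the 15888 genes tested and a threshold of 0.05. Libraries with the same number come from the same cell line. Their deviations from the treatment means correlated at 0.631 to 0.724 across genes. Lines were compared in the same fit, and pairs of genes by an exact sign-flip permutation test over the 4 lines. The fit was tested on simulated data. Gene positions and exon lengths are those of GENCODE M21 on GRCm38, and promoters come from RefSeq (GRCm38.p6). Python 3.11.15, numpy 2.4.6, pandas 2.3.3, scipy 1.17.1 and matplotlib 3.10.9 were used.

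The inhibitor genes and all lists were chosen with earlier results of these data known. Named from a list were its genes with an adjusted p under 0.05, at most the 4 with the largest change in each direction, plus Trp53, Skp2, Foxo1, Foxo3, Myc, Mtap, Ccnd1 and Cdk4; some items that meet this rule or belong to the genotype are not reported here. Alternatives were pseudocounts of 0.1 and 5, equal library totals, quantile normalization, centring on the median, no filter or one at a mean of 50, eBayes without trend or with robust estimation, no block, a minimum change of 2-fold and the removal of each line.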

Additional observations from a re-analysis of the deposited data

Results flagged for a closer look

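In line #5 the log2 change of Cdkn1a was -0.12, while the other 3 lines lay between 0.72 and 0.83, a gap to the nearest line that takes up most of the range of the 4 values. The DMSO count of Cdkn1b in line #10, 2564, stood apart in the same way from 3458 to 3585 in the other lines. Such gaps were looked for in 21 groups of 4 values, in which chance gives about 1 in 20, or 1.05, and 2 were found.

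Lines moved in opposite directions in 3 genes. Cdkn1a was lower with trametinib only in line #5 (-0.12), and Cdkn1b only in line #3 (-0.30 on the log2 scale). Cdkn2a was lower in line #5 (-0.19) and line #10 (-0.016) and higher in lines #1 and #3. These differences between lines were not tested, since a line has 1 library per treatment.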

How the results depend on the processing

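No inhibitor gene changed direction in any of the 15 alternatives. Of 105 values for the 7 genes, 85 kept their side of the threshold in limma, 19 lost a call and 1 gained one, and Cdkn1c and Cdkn2b kept their calls in 13 of 15 alternatives. The fit without the replicate block, which ignores the pairing by cell line, called 0 inhibitor genes higher and 0 lower in limma, with 1 and 1 at an unadjusted p under 0.05. A required change of 2-fold left 0 higher and 0 lower (1 and 0 at an unadjusted p under 0.05 in limma), with an adjusted p of 0.0616 for Cdkn1c. When a line was left out, 17 to 19 of the 21 pairs of genes had 1 direction in the lines that remained. This number cannot fall below the 17 found over all lines, so it does not measure stability. With a line left out, 2 to 3 genes were higher, 0 to 2 were lower and 2 to 5 differed between lines. The low ends were 0 lower without line #10 (2 at an unadjusted p under 0.05 in limma), 2 higher without line #1 or line #10, and 2 between lines without line #1, and the high end of 5 was reached without line #3. Libraries rescaled to equal totals gave 5333 higher and 3285 lower genes over all, against 4341 and 4075, and raised the median log2 change of all genes from 0.07 to 0.20. Over all genes the calls were 2205 higher and 2347 lower without the block, and 557 and 176 with the 2-fold minimum. The cause of these shifts was not tested. Of 47 other listed genes that passed and met the naming rule, 15 did not pass in limma without the block (adjusted p of 0.0536 to 0.623), among them Cdk4, Rb1, Fbxl12, Trp53, Smad2, Ets1, Ets2, Cbx6, Ezh1, Id1, Sesn2, Bax, Kcnq1ot1 and Wee1. Another scaling also ended the limma calls of Rb1 (adjusted p of 0.0640 with quantile normalization and 0.0713 with centring on the median), Kcnq1ot1 (0.0683 and 0.0996), Ets2 (0.102 with centring) and Ezh1 (0.0627 with centring). With 4 lines, the 95% intervals allow log2 changes of up to 0.62 for Cdkn1b and 0.50 for Cdkn2a, and counts under about 10 reads (Cdkn1c with DMSO in lines #3 and #10) limit the fold of those lines.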
